A study of Bos taurus with 16 samples.

Results

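The circadian clock genes examined here in bovine spleen were CLOCK and ARNTL, the activators of the clock, PER1, PER2, PER3, CRY1 and CRY2, its main repressors, NR1D1 and NR1D2, which encode the nuclear receptors REV-ERBα and REV-ERBβ, and DBP, an output transcription factor. They were chosen by name, as transcript clusters whose only gene symbol in the platform annotation was one of these, and all 10 were found among the 18444 different single symbols on the array. PER2 had 2 clusters, which were averaged, and each of the others had 1, so that 11 clusters represented the 10 genes. RNA was from 16 crossbred steers, about a year old when an 84-day feeding trial on a concentrate diet began, and 1 Affymetrix Bovine 1.1 ST array was run per steer. The steers were those farthest from the mean of gain and intake in each quadrant, with 4 steers to a group. Gain and intake are matched in the high gain-high intake group and in the low gain-low intake group, and split in the high gain-low intake group and in the low gain-high intake group. All groups shared a pen and ate the same diet at will. According to the methods, slaughter took place on consecutive days with an animal of each group on each day, and the spleen was sampled soon after exsanguination. The animals of a day were weighed that morning and processed serially within a few hours. The sources used here do not give the day, clock time, order, breed or RNA quality by animal, and the breed composition differed between the groups.

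In mammals, the clock of most cells is a loop of transcription. The CLOCK and ARNTL proteins bind DNA as a pair and switch on the PER, CRY, NR1D and DBP genes, the PER and CRY proteins then block that pair, and the REV-ERB receptors repress ARNTL. In a tissue sampled around the day, ARNTL transcripts are therefore usually high when those of NR1D1, NR1D2, DBP and the PER genes are low. The spleen has such a clock in rodents, shared among lymphocytes, macrophages and stroma, and PER1 and PER2 can in addition be switched on directly by glucocorticoids and by cAMP. The present samples are not a time series, and the relation between the genes can be read here only from 1 steer to the next.

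The values are log2 array signals, so that a difference of 1 is a doubling, and they were compared only within a gene. The arrays were alike, with medians of 8.24 to 8.37 and correlations of 0.955 to 0.986 between any pair of steers. B cell, T cell, plasma cell and macrophage markers were well above the lower quartile of all features (7.04) in all groups, while 2 of 3 fat markers (ADIPOQ and FABP4) and 2 of 4 pancreas markers (CPA1 and CEL) were below it and the others of both lists above. NR1D1 was near the floor of the scale, with a mean of 7.27 and 29.7% of all features dimmer, and the narrowest range of the 10 genes over the steers, from 7.02 to 7.64. CLOCK had the widest, from 10.58 to 12.70, followed by DBP, from 7.65 to 9.64. Because whole spleen was measured, more cells of a type and more RNA per cell cannot be told apart.

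The first question was whether the level of a clock gene differed between the gain and intake groups. No clock gene had an unadjusted p under 0.05 in limma's F test over the 4 groups, where 4.67% of all 24994 features did. The adjusted p was 1 for each of the 10 genes in this test. High gain steers did not differ from low gain steers at an unadjusted p under 0.05 in any clock gene, against 6.06% of all features, and the same was true of high against low intake, against 3.4%. The gain differences lay on both sides of 0, with 3 genes higher and 7 lower in high gain steers, and a median of -0.07 beside -0.01 for all features. For intake, 5 were higher and 5 lower in high intake steers. When the groups were ordered by their mean within each gene, none of the 30 pairs of neighbouring groups differed at p under 0.05 by an exact permutation test of 4 against 4 steers, which cannot go below 0.0286. The lowest of these p-values was 0.143. Of the 10 comparisons of the highest with the lowest group, 1 reached 0.0286, that of PER1, highest in low gain-low intake steers and lowest in low gain-high intake steers.

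**Figure D1:**
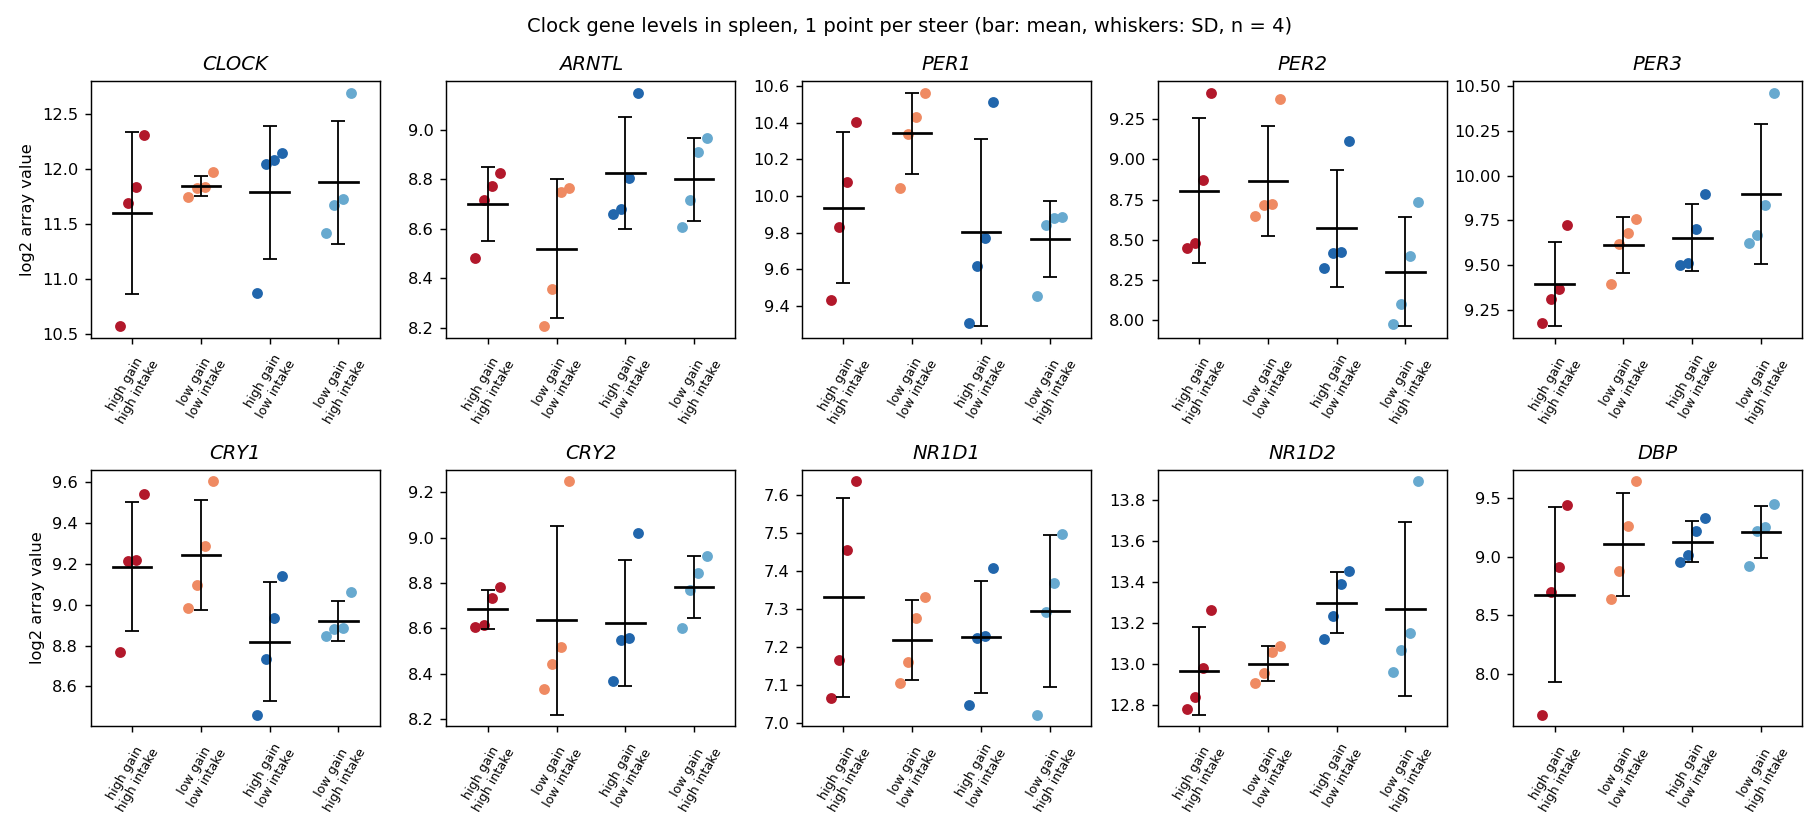
Log2 array values of the 10 clock genes (vertical axes, a scale of its own for each gene) by group on the horizontal axes, with 1 point per steer, the mean as a bar and the SD as whiskers (n = 4). The mean of CRY1 is 9.19 in high gain-high intake and 9.25 in low gain-low intake steers, against 8.82 in high gain-low intake and 8.92 in low gain-high intake steers, and no group lies apart from all 3 others in any panel.

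The contrast in which clock genes stood out most was the interaction of gain and intake, which asks whether high and low intake steers differ in the same way at both levels of gain. It is given as the intake difference among high gain steers minus that among low gain steers. CRY1, PER2 and NR1D2 had an unadjusted p under 0.05, 3 of 10 genes against 4.65% of all features, but the adjusted p was 1 for each, and no feature of the array reached an adjusted p under 0.05. CRY1 and PER2 were higher, and NR1D2 lower, where gain and intake were both high or both low than where they were split. Of the 10 genes, 4 had a positive and 6 a negative interaction, with a median of -0.15 beside -0.02 for all features.

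CRY1, a cryptochrome repressor of the CLOCK and ARNTL pair, kept its unadjusted call in every alternative run. Its values were 8.77, 9.21, 9.22 and 9.55 in high gain-high intake steers and 8.99, 9.10, 9.29 and 9.61 in low gain-low intake steers, against 8.46, 8.74, 8.94 and 9.14 in high gain-low intake and 8.85, 8.88, 8.89 and 9.06 in low gain-high intake steers. Thus 5 of the 8 steers with matched gain and intake lay above all 8 of the others, and the rest overlapped. The intake difference was 0.37 among high gain steers and -0.33 among low gain steers, an interaction of 0.69 ± 0.26 (SE, limma unadjusted p = 0.0169, exact permutation p = 0.0124). Under the 23 other settings and omissions of a steer, it stayed between 0.57 and 0.83 with an unadjusted p of at most 0.0402.

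PER2, a period repressor, had the interaction of greatest size among the 10 genes. It had 8.45, 8.48, 8.87 and 9.42 in high gain-high intake steers and 8.64, 8.72, 8.72 and 9.37 in low gain-low intake steers, against 8.33, 8.42, 8.42 and 9.11 in high gain-low intake and 7.98, 8.10, 8.40 and 8.73 in low gain-high intake steers. A single steer stood high in each of the first 3 of these groups, and the groups overlapped. The interaction was 0.80 ± 0.36 (SE, limma unadjusted p = 0.0398, exact permutation p = 0.0465). Leaving out steer 20124206, the high gain-high intake animal at 9.42, gave 0.59, and the unadjusted p was then over 0.05, as it was without each of 20123806, 20123891, 20123591, 20123611, 20123915, 20123852 and 20124211. The unadjusted p of the interaction was also over 0.05 with ordinary least squares (0.0556) and on cluster 12842519 of PER2 alone (limma, 0.0949). Low gain-high intake steers were also 0.45 ± 0.205 below the other 3 groups in PER2 (SE, limma unadjusted p = 0.0460, adjusted p = 1, exact permutation p = 0.0549). The unadjusted call was lost in 7 of 16 omissions of a steer (20123806, 20124206, 20123812, 20123915, 20123636, 20123852 or 20124211), with ordinary least squares and with array weights, and on cluster 12837947 of PER2 alone, where the difference was -0.29.

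NR1D2, which encodes REV-ERBβ and represses ARNTL, ran the other way. Its values were 12.78, 12.84, 12.98 and 13.26 in high gain-high intake steers and 12.91, 12.96, 13.06 and 13.09 in low gain-low intake steers, against 13.12, 13.23, 13.39 and 13.45 in high gain-low intake and 12.96, 13.07, 13.15 and 13.89 in low gain-high intake steers. Of the 8 steers with matched gain and intake, 4 lay below all 8 of the others. The interaction was -0.60 ± 0.25 (SE, limma unadjusted p = 0.0321, exact permutation p = 0.0138). It was -0.39 without the steer at 13.89, 20124257, with an unadjusted p over 0.05, which also held without each of 20123616, 20123841, 20123891, 20123812, 20123593 and 20123915. With a mean-dependent prior and robust moderation in limma, the unadjusted p was 0.0599.

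PER1 and PER3, the remaining period genes, and ARNTL missed the threshold for the interaction, with 0.71 ± 0.34 (exact permutation p = 0.0738), -0.54 ± 0.26 (p = 0.0514) and -0.40 ± 0.22 (p = 0.0737), each ± SE. DBP, which binds D-boxes in the promoters of clock-controlled genes, had -0.55 ± 0.42, a spread that came largely from a high gain-high intake steer at 7.65, beside 8.70 to 9.44 in the other 3 steers of its group. CLOCK, CRY2 and NR1D1 had -0.22, -0.09 and 0.03, each within its SE of 0. CRY2, the second cryptochrome, ranged from 8.33 to 9.25 and NR1D1 from 7.02 to 7.64 over the 16 steers, and the range of each group overlapped those of all others in both genes. The count of 3 genes ran from 2 to 4 under the settings that kept all steers, with 4 after median centring or quantile normalization of the arrays. It was 1 without steer 20123891 (high gain-low intake) or 20123915 (low gain-low intake).

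**Figure D2:**
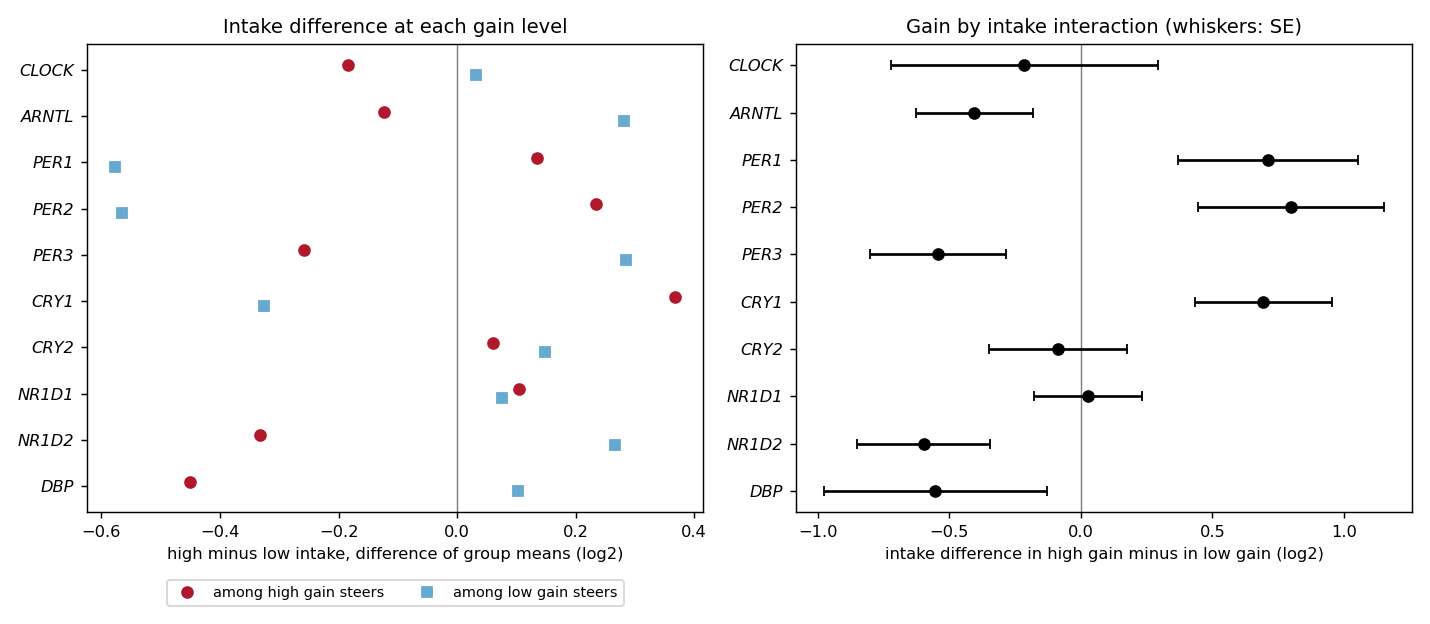
Left, the high minus low intake difference of group means (log2, horizontal axis) for each clock gene (vertical axis), as circles among high gain and squares among low gain steers; right, the difference between these, the gain by intake interaction, with its SE as whiskers. PER1, PER2 and CRY1 lie at 0.71, 0.80 and 0.69, NR1D2, PER3 and DBP at -0.60, -0.54 and -0.55, and NR1D1 and CRY2 near 0.

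Setting each group against the other 3 gave few further differences. PER1 was 10.04, 10.34, 10.43 and 10.56 in low gain-low intake steers, against 9.43 to 10.40 in high gain-high intake, 9.31 to 10.51 in high gain-low intake and 9.45 to 9.88 in low gain-high intake steers. The low gain-low intake steers thus all lay in the upper part of the range, and 1 of them lay above all 12 others. Their mean was 0.51 ± 0.20 above the other 3 groups (SE, limma unadjusted p = 0.0210, adjusted p = 0.818, exact permutation p = 0.0214). It was 0.44 without steer 20123915 and 0.48 without 20123661, and the unadjusted p was then over 0.05. PER1 was the only clock gene with an unadjusted p under 0.05 in this contrast, where 5.47% of all features had one. ARNTL was 0.25 ± 0.13 lower in the same steers (SE, limma unadjusted p = 0.0657, exact permutation p = 0.0473), with 8.21 and 8.36 in 2 of them and 8.75 and 8.77 in the others.

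PER3, the period gene that is least needed for the rhythm in mice, had 9.17, 9.31, 9.37 and 9.72 in high gain-high intake steers and 9.39, 9.62, 9.68 and 9.76 in low gain-low intake steers, against 9.50, 9.51, 9.70 and 9.89 in high gain-low intake and 9.62, 9.67, 9.84 and 10.46 in low gain-high intake steers. The lowest 3 high gain-high intake steers lay below all 12 others, and the fourth was among them. PER3 was 0.33 ± 0.15 lower in high gain-high intake steers than in the other 3 groups (SE, limma unadjusted p = 0.0439, exact permutation p = 0.0549), the only clock gene under 0.05 in that contrast, against 3.47% of all features. It was 0.35 ± 0.15 higher in low gain-high intake steers than in the others (SE, limma unadjusted p = 0.0348, exact permutation p = 0.0385). The first lost its unadjusted call in 9 of 16 omissions and the second in 6. The second was 0.16 without steer 20124257, which had 10.46 beside 9.62 to 9.84 in its group. With PER2, this made 2 clock genes in the low gain-high intake contrast, against 4.45% of all features. No clock gene was under 0.05 for high gain-low intake steers, against 5.57% of all features, and the adjusted p of all clock genes was 0.818 or higher in all 7 contrasts.

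Other genes of the clock were looked up from a list of 24, of which 20 were measured. None had an unadjusted p under 0.05 in the F test and none an adjusted p under 0.05 in any contrast. NFIL3, a repressor that competes with DBP for D-boxes, had the largest interaction, 1.26 ± 0.49 (SE, limma unadjusted p = 0.0205, exact permutation p = 0.00963). It averaged 8.38 ± 0.72 in high gain-high intake and 8.34 ± 0.56 in low gain-low intake steers, against 7.66 ± 0.49 in high gain-low intake and 7.80 ± 0.25 in low gain-high intake steers (SD, n = 4 each), with the matched groups above the split ones as for CRY1 and PER2. For gain, the casein kinase CSNK1D, which phosphorylates PER proteins, was 0.28 ± 0.12 higher in high gain steers (SE, exact permutation p = 0.0288), and FBXW11, an F-box protein that marks PER proteins for breakdown, was 0.34 ± 0.15 higher (p = 0.0297). HLF, a relative of DBP, was 0.32 ± 0.14 higher in high intake steers (SE, exact permutation p = 0.0426). SERTAD1, a transcriptional co-regulator, was 0.50 ± 0.20 higher in low gain-low intake steers (SE, exact permutation p = 0.0220). CSNK1E, another casein kinase of PER proteins, was 0.28 ± 0.12 lower in high gain-low intake steers than in the other 3 groups (SE, exact permutation p = 0.0291), and was singled out after its value was seen. These were 2 of 20 genes for gain, where 6.06% of all features had an unadjusted p under 0.05, and 1 of 20 each for intake (3.4%), the interaction (4.65%), the low gain-low intake contrast (5.47%) and the high gain-low intake contrast (5.57%). For the remaining 2 contrasts the count was 0 of 20.

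The second question was how the clock genes moved together over the 16 steers. Of the 45 pairs, 26 had a positive and 19 a negative Pearson correlation, and the median was 0.02. After adjustment over the 45 pairs, only PER1 with PER2 passed, with r = 0.78 (permutation p = 0.00038, adjusted p = 0.0171) and Spearman's rho = 0.74 (p = 0.00151). Steers 20124206, 20123812 and 20123915, each of another group, were the 3 highest in PER2 and among the 4 highest in PER1. The r was 0.68 without the 2 steers farthest from the median of PER1, 0.78 within groups and 0.73 to 0.82 when each steer was left out. With values centred on the group means, and without the 2 farthest steers, no pair passed the adjustment, and the unadjusted permutation p of this pair was 0.00179 and 0.00608. Both PER2 clusters took part, with r = 0.80 and 0.64 with PER1, and r = 0.62 with each other (permutation p = 0.0093, rho = 0.53).

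Of the other pairs, 3 had an unadjusted p under 0.05. CRY1 and NR1D2 ran in opposite directions, with r = -0.64 (permutation p = 0.00848, adjusted p = 0.0954) and rho = -0.76 (p = 0.00101, adjusted p = 0.034), and r was -0.61 without the 2 farthest steers and -0.46 within groups. PER3 and NR1D2 varied together, with r = 0.69 (permutation p = 0.00808, adjusted p = 0.0954), but rho was 0.41 (p = 0.12) and r was 0.31 without steer 20124257, the highest in both genes. CLOCK and PER2 were opposed, with r = -0.70 (permutation p = 0.0025, adjusted p = 0.0563) and rho = -0.58 (p = 0.0201), and r was -0.44 without steers 20124206 and 20123812, the lowest in CLOCK.

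An opposed course of ARNTL and its repressors NR1D1 and NR1D2 was not detected over these steers. By the paper's methods, the animals of a day were processed within a few hours after weighing that morning. Steers sampled over so little of the day can hardly show whether these genes are opposed around the day, and no conclusion on the clock is drawn. ARNTL had r = 0.29 with NR1D1 (permutation p = 0.28) and 0.47 with NR1D2 (p = 0.0681), both positive, and 0.18 with DBP (p = 0.476). Against the 8 genes that the CLOCK and ARNTL pair drives, ARNTL had 5 positive and 3 negative correlations and CLOCK 2 positive and 6 negative. The most negative for ARNTL was with CRY1, at r = -0.46 (permutation p = 0.0685, adjusted p = 0.406, rho = -0.33). Without the 2 farthest steers this r was -0.61 (permutation p = 0.0221). CLOCK and ARNTL themselves had r = -0.01 (permutation p = 0.976). Among the 8 driven genes, 19 of 28 pairs were positive, with a median r of 0.12. The rank correlation of ARNTL with NR1D2 was rho = 0.57 (permutation p = 0.0214, adjusted p = 0.192), and r was 0.60 without the 2 farthest steers (permutation p = 0.0283). CLOCK with ARNTL changed sign under several alternatives, from r = -0.14 to 0.10 when each steer was left out and 0.24 without the 2 farthest.

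**Figure D3:**
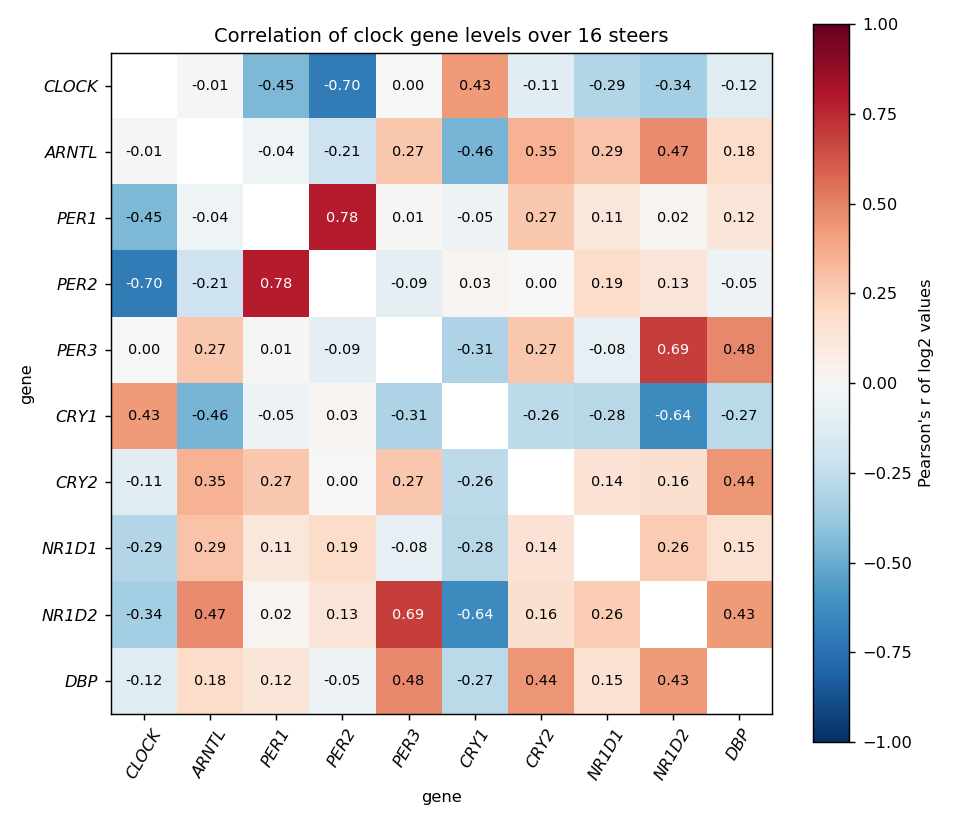
Pearson's r between the log2 values of each pair of clock genes over 16 steers, with genes on both axes and colour running from blue (-1) through white (0) to red (1). PER1 with PER2 (0.78) and PER3 with NR1D2 (0.69) are the strongest positive pairs, CLOCK with PER2 (-0.70) and CRY1 with NR1D2 (-0.64) the strongest negative ones.

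A principal component analysis of the 10 genes, each scaled to the same variance, put these relations on 2 axes. The first held 32.1% of the variance. NR1D2 (loading 0.83), DBP (0.60), PER3 (0.60), ARNTL (0.56) and CRY2 (0.52) lay at one end, and CRY1 (-0.74) and CLOCK (-0.55) at the other. The second held 23.0%, with PER2 (0.91) and PER1 (0.75) against CLOCK (-0.65). PER1 and PER2 loaded 0.35 and 0.28 on the first axis.

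To read these correlations against the array as a whole, every other feature was regressed on each clock gene in turn. CLOCK was followed by 3036 of 24993 features at an adjusted p under 0.05 (12.1%), 1634 in its own direction and 1402 against it, and PER2 was the only clock gene among them. PER2 was followed by 151 features (0.604%), PER1 among them (adjusted p = 0.0415). None of the other 8 clock genes was followed by any feature at that level. Without steer 20124206, CLOCK was followed by 1219 features, PER2 by 1, and neither by a clock gene. With the group means in the model, PER2 was followed by 1234 features.

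CLOCK tracked the main axis of variation of the array. Its values were 10.58, 11.70, 11.84 and 12.31 in high gain-high intake steers and 11.75, 11.83, 11.84 and 11.97 in low gain-low intake steers, against 10.88, 12.05, 12.08 and 12.14 in high gain-low intake and 11.42, 11.68, 11.73 and 12.70 in low gain-high intake steers. A low steer stood apart in each of the high gain groups and a high one in the low gain-high intake group. Its correlation with the first component of all features, which held 21.0% of their variance, was r = 0.94 (permutation p = 1e-05, the smallest that 100000 resamples can give; rho = 0.96; r = 0.94 without the 2 farthest steers; adjusted p = 0.0019 over 190 relations of clock genes to array-wide measures and marker lists). PER2 had r = -0.725 with the same component (permutation p = 0.0016, adjusted p = 0.0608, rho = -0.70) and PER1 -0.50 (p = 0.0477, adjusted p = 0.504, rho = -0.56). When this component was removed from the values, the pair of CLOCK and PER2 had r = -0.07 and that of PER1 and PER2 0.70 (permutation p = 0.00124), while PER3 with NR1D2 and CRY1 with NR1D2 had 0.69 and -0.57. The part of RNA quality in this component was not tested, as it is not given by animal. 

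The genes most like each clock gene were taken from features with a single symbol above the median level. CLOCK was nearest to ATM, the kinase that senses DNA breaks (r = 0.97 over 16 steers), TASOR, a subunit of a silencing complex (0.97), and BLTP1 (0.97). PER2 was nearest to PTPN1, a protein tyrosine phosphatase (r = 0.95), DUSP16, a phosphatase of MAP kinases (0.90), and LPIN2, a phosphatidate phosphatase (0.90), all with an adjusted p of at most 0.00953 for the slope. PER1 was nearest to CNNM4 (0.83), RENBP (0.81) and NUGGC (-0.81), PER3 to RAB33B (-0.88), SH3PXD2A (0.86) and TCF21 (0.85), and NR1D2 to ARHGAP31 (0.87), H1-2 (0.84) and NEDD4L (0.84). CRY1 was nearest to GPNMB, a glycoprotein of macrophages (r = -0.86, adjusted p = 0.0627), ZNF177 (0.83) and BRWD3 (0.81). For ARNTL these were CHD2 (-0.85), RNF169 (0.77) and PACS2 (0.76), for CRY2 MTAP (-0.87), MYL2 (-0.84) and SCARA3 (0.83), for NR1D1 SMO (0.83), EGFR (0.82) and ATP6V0A2 (0.76), and for DBP KEL (0.77), LPAR1 (-0.77) and RAB34 (0.74). The slopes on these 7 clock genes and on CRY1 had an adjusted p over 0.05. Of the 20 further clock genes measured, 4 followed CLOCK at an adjusted p under 0.05, where 12.1% of all features did. CSNK1D (r = -0.72), TIMELESS (-0.70) and BHLHE40, a repressor of clock targets (-0.68), ran against it. BTRC, an F-box protein that targets PER proteins, ran with it (0.67).

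Lists of hormone and stress response genes were set beside PER1 and PER2. The mean of 9 glucocorticoid-responsive genes had r = 0.70 with PER2 (permutation p = 0.00279, adjusted p = 0.0884 over the 190 relations, rho = 0.69) and 0.68 with PER1 (p = 0.00374, adjusted p = 0.102, rho = 0.59). Without the 2 farthest steers these were 0.64 and 0.48. CEBPD, a transcription factor induced by glucocorticoids and in the acute phase, had r = 0.86 with PER2 (rho = 0.81, limma adjusted p = 0.00936), rank 16 among all features, and 0.78 with PER1 (adjusted p = 0.311). Without the 2 farthest steers, r was 0.71 with either gene. Without steer 20124206, PER2 was followed by only 1 feature of the array. ERRFI1, of the same list, had r = 0.63 with PER2, and 0.42 without the 2 farthest steers. Of the cAMP and immediate early list, JUNB had r = 0.66 with PER2 and SIK1 0.61 with PER1. Each of these had an adjusted p over 0.05. That list ran from r = 0.03 (NR4A2) to 0.66 (JUNB) with PER2, and from -0.005 (FOS) to 0.61 (SIK1) with PER1. Its mean had r = 0.41 with PER2 (permutation p = 0.115) and 0.36 with PER1 (p = 0.177). The remaining genes of the glucocorticoid list had lower r with PER2. These were TSC22D3 (0.52), DUSP1 (0.48), FKBP5 (0.31), ZBTB16 (0.29), DDIT4 (0.25), KLF9 (-0.04) and SGK1 (-0.13). With PER1 the same genes ran from -0.25 (SGK1) to 0.41 (ZBTB16).

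Of the glucocorticoid list, all 9 genes had a positive interaction, though none had an unadjusted p under 0.05. The median over all features was -0.02. All 7 heat shock genes measured were positive too, 6 of them at an unadjusted p under 0.05, against 4.65% of all features. Of 9 cAMP and immediate early genes, 7 were positive. The interaction of the list mean was 0.97 for glucocorticoid (exact permutation p = 0.025), 1.64 for heat shock (p = 0.014) and 0.47 for cAMP and immediate early genes (p = 0.584). The mean of the glucocorticoid list was 12.37 to 13.12 in high gain-high intake and 12.20 to 13.11 in low gain-low intake steers, against 11.65 to 12.65 in high gain-low intake and 11.53 to 12.54 in low gain-high intake steers. The 7 heat shock genes measured averaged 13.95 to 15.42 in low gain-low intake steers, the group with the highest PER1, against 13.18 to 14.27 in high gain-high intake, 12.98 to 13.51 in high gain-low intake and 13.04 to 13.29 in low gain-high intake steers. Of these 7, 6 were higher in low gain-low intake steers at an unadjusted p under 0.05, as were 5 of 9 cAMP and immediate early genes, where 5.47% of all features had such a p in either direction. The glucocorticoid, heat shock and cAMP lists were all chosen with earlier results of these data known. The paper had already reported heat shock genes as raised in low gain-low intake steers on these arrays. It also reported protein folding genes, heat shock genes among them, as over-represented for the interaction. The counts, signs and list-mean tests for these lists are therefore not independent tests. No gene of these lists had an adjusted p under 0.05 in any contrast. Over all steers, the heat shock mean had r = 0.47 with PER1 (permutation p = 0.0631, rho = 0.41) and within groups it had -0.05. The part of these responses in the differences of PER1, PER2 and CRY1 was not tested.

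Markers of cell types moved with some of the clock genes. The mean of 4 plasma cell markers (JCHAIN, MZB1, XBP1 and TNFRSF17) had r = -0.80 with CRY1 (permutation p = 0.00016, adjusted p = 0.0152 over the 190 relations, rho = -0.78), and r was -0.74 without the 2 farthest steers and -0.76 within groups. That mean was 13.12 to 14.13 in high gain-high intake and 12.88 to 13.97 in low gain-low intake steers, against 13.52 to 14.09 in high gain-low intake and 13.07 to 13.82 in low gain-high intake steers. Its interaction was -0.62 (exact permutation p = 0.132), opposite in sign to that of CRY1. NR1D2 had r = 0.75 with 3 endothelial markers (PECAM1, VWF and CDH5; permutation p = 0.00131, adjusted p = 0.0608, rho = 0.65), and 0.43 without the 2 farthest steers, and r = 0.56 with the plasma cell markers (permutation p = 0.0175, adjusted p = 0.289, rho = 0.71). ARNTL had r = -0.79 with 3 fat markers (permutation p = 0.00035, adjusted p = 0.0222, rho = -0.79), of which ADIPOQ and FABP4 were below the lower quartile of features, and -0.51 without the 2 farthest steers. The part of cell composition in the differences of CRY1, NR1D2 and ARNTL was not tested.

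**Figure D4:**
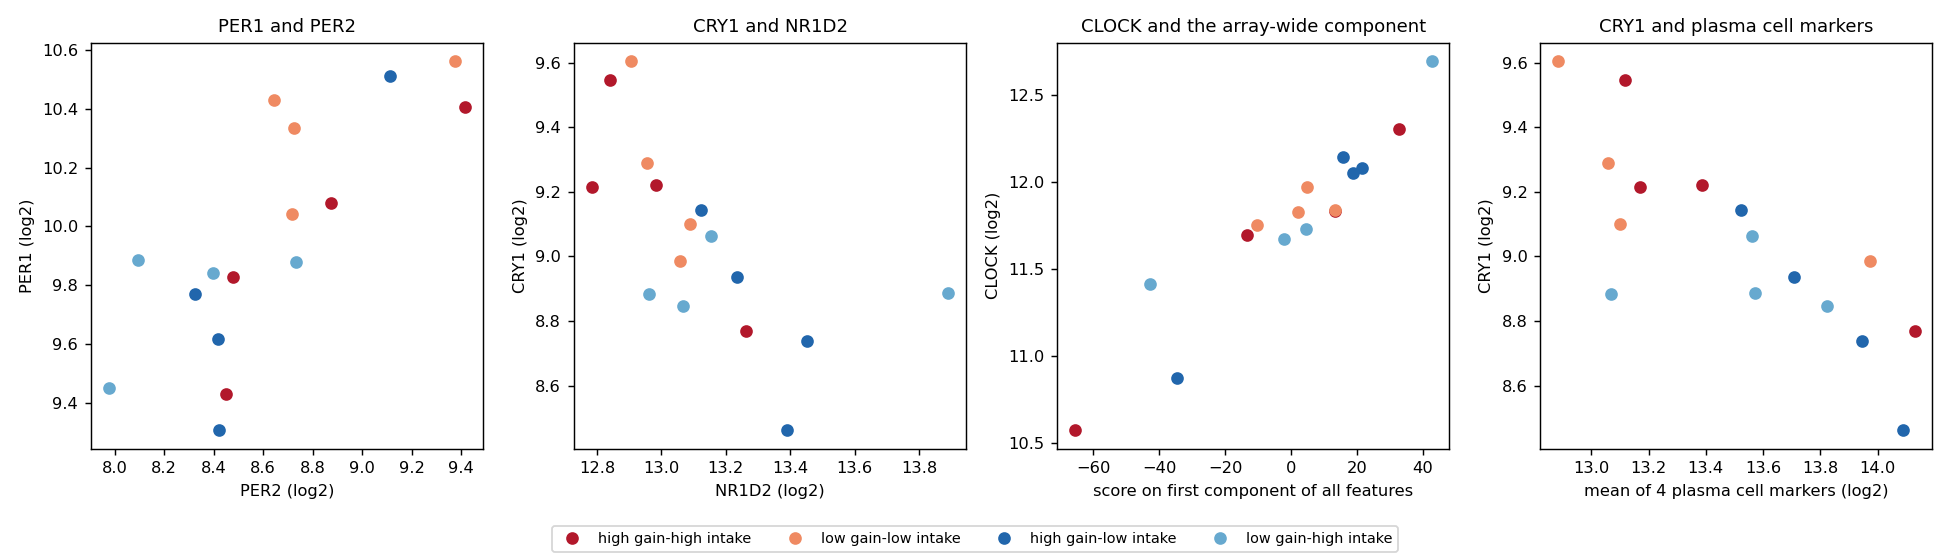
Each point is 1 of 16 steers, coloured by group, and gene values are log2. From left to right: PER1 on the vertical axis against PER2 (r = 0.78), CRY1 against NR1D2 (r = -0.64), CLOCK against the score on the first component of all features (r = 0.94), and CRY1 against the mean of 4 plasma cell markers (r = -0.80).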

How the data were processed

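Affymetrix Bovine 1.1 ST arrays measured spleen RNA of 16 steers, 1 array each. The authors treated the signals with GC content normalization, SST and RMA in Affymetrix Expression Console and deposited log2 values, 1 for a transcript cluster in a steer. Transcriptome Analysis Console is also named in the submitters' processing notes. The sources used here give no program versions. Values were used as deposited. Of 26773 features, 1776 whose ID precedes all annotated IDs were dropped, and 24994 remained after clusters of the listed genes were averaged. Groups were those of the sample labels.

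In R 4.3.3, limma 3.58.1 (lmFit, then eBayes) fitted the group means, with an F test, 7 contrasts and Benjamini-Hochberg adjustment over all features. All p-values are two-sided. Single genes were also tested by exact permutation of the steers over all groups (1820 ways for 4 of 16, smallest p 0.000549; 12870 for 8 of 16, smallest p 0.000155). Correlations used 100000 resamples, with adjustment over 45 pairs or 190 relations to lists. The slope on each clock gene was fitted over all other features. Fits and permutation tests were first tested on simulated data. The number of arrays limits the precision.

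The clock genes, the further lists and the rules for named genes (all clock genes, further clock genes with an unadjusted p under 0.05 in the F test, for gain, intake, their interaction or low gain-low intake, or following a clock gene, the 3 features most like each clock gene, and up to 3 response genes per list) were chosen with earlier results of these data known. The alternatives tried were array weights, median centring, quantile normalization, ordinary least squares, a mean-dependent prior with robust moderation, filters on features, single clusters, group-centred values, rank correlation and leaving out each steer. Removal of the first component and leaving out steers in the slope fits were added after seeing the data.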

Additional observations from a re-analysis of the deposited data

Results flagged for a closer look

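Among 40 groups of 4 steers, 10 genes in 4 groups each, 4 held a steer whose gap to the next was large for the range of its group, a test that by chance marks about 1 in 20. PER2 had such a steer in 2 groups, 20123812 at 9.11 among high gain-low intake steers and 20123915 at 9.37 among low gain-low intake steers. Steer 20123812 was also marked in CLOCK, where its 10.88 was far below the rest of its group. In PER1, steer 20124211 was low, at 9.45, among low gain-high intake steers.

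The intake difference was not the same at both levels of gain in 3 genes before adjustment, by the interaction in the limma fit. High minus low intake was 0.23 among high gain and -0.56 among low gain steers in PER2, an interaction of 0.80. In CRY1 the differences were 0.37 and -0.33, an interaction of 0.69, and in NR1D2 they were -0.33 and 0.27, an interaction of -0.60. The adjusted p was 1 for all 3.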

How the results depend on the processing

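None of the 7 named group differences and 4 named pairs of clock genes with an unadjusted p under 0.05 changed sign under the alternatives run, while the correlation of CLOCK with ARNTL, near 0, did. The number of clock genes with an unadjusted p under 0.05 became 0 for high gain-high intake against the other 3 groups with a mean-dependent prior and robust moderation, array weights or median centring, 2 for low gain-low intake with each PER2 cluster on its own, and 1 for low gain-high intake with ordinary least squares or array weights. Array weights gave 3 features with an adjusted p under 0.05 for low gain-low intake, none of them a clock gene. Of the pairs of clock genes, 2 passed by Spearman's rho, 0 with values centred on the group means, 0 with the first component removed and 0 without the 2 farthest steers. The slope fits gave 1 call of a clock gene in place of 2 after median centring, quantile normalization or that prior. Leaving out 1 steer at a time, the counts of clock genes ranged from 0 to 1 in the F test, for gain and for high gain-low intake, 0 to 2 for high gain-high intake as for low gain-high intake, 0 to 3 for low gain-low intake and 1 to 4 for the interaction, the pairs from 1 to 2 and the slope calls from 0 to 3. Features with an adjusted p under 0.05 then ranged from 0 to 11 for low gain-low intake and from 0 to 1 in the F test and each of the other contrasts. Labels share no replicate number between groups. Each number in the labels names 1 steer. The animals of a slaughter day could not be matched because the sources used here do not give the day by animal. The cause of these shifts was not tested. The dim NR1D1 and the 4 steers per group set the limit of what could be seen.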

Other observations

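CRY2, with no unadjusted p under 0.05 in any contrast, was highest in the low gain-low intake steer at 9.25 and followed neutrophil markers (S100A8, S100A9 and CSF3R) over the 16 steers, with r = 0.62 (permutation p = 0.00898, adjusted p = 0.213 over 190 relations, rho = 0.57) and r = 0.50 without the 2 farthest steers. NR1D1, the dimmest clock gene, had r = 0.59 with the mean of the 20 further clock genes (permutation p = 0.0161, adjusted p = 0.289, rho = 0.66), which ranged only from 9.20 to 9.53.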
